A study of Mus musculus with 8 samples.

Results

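Called adenines that are followed by 2 guanines on their own strand (AGG, with the called base first) made up 1253 of the 17418 N6-methyladenine calls in 4 lists from mouse embryonic stem (ES) cells. A site was taken when the 41-base context deposited with it had the called A at base 21 and G at bases 22 and 23. The base before the called A, base 20, splits them into 248 AAGG, 391 CAGG, 418 GAGG and 196 TAGG sites. No measured value was used to choose them.

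The study isolated chromatin without crosslinking, pulled it down with a customized antibody against the histone variant H2A.X and sequenced the DNA on single molecules in real time. The cells were TT2 ES cells of C57BL6 x CBA background, grown feeder-free and taken between passages 5 and 10. They carried either a knockout of Alkbh1 (KO) or the wild type genes (WT), and the DNA of each genotype was sequenced as a long (L) and a short (S) part. The 8 samples are 2 replicates of KO L, WT L, KO S and WT S, and both replicates of a group share 1 deposited list. The labels do not say how the knockout was made or whether it is 1 clone, and a list of modified bases holds no expression by which the loss of Alkbh1 could be checked. There is therefore no replicate check of any value below, and every interval is a 95% interval of counting error alone that treats sites as independent, so it is too narrow where calls cluster.

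N6-methyladenine is an adenine that carries a methyl group on its amino nitrogen. Alkbh1 belongs to the AlkB family of dioxygenases, some of which remove methyl groups from nucleic acids. A methylated base slows the polymerase during sequencing, and the caller reads this from the inter-pulse duration (IPD), the waiting time before a base is incorporated, as its ratio to the time predicted for an unmodified base. In the nematode Caenorhabditis elegans, GAGG was among the sequence contexts described for this mark.

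The contexts below, copied from the deposited lists in mm10 coordinates and written 5′ to 3′ on the called strand, show the members that the results turn on. Capitals mark the called A and the 2 guanines. The first was called in all 4 lists and the second in 2 lists, the next 3 had the highest identification score (the caller's score for N6-methyladenine as the kind of modification) of CAGG, AAGG and TAGG sites, and the last 2 share the 7 bases AGGTACC with the Ppp1r21 site.
GAGG site called in all 4 lists, chr2:98665201-98665241, plus strand: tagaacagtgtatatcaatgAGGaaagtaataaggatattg
TAGG site called in KO S and WT L, chr14:19416524-19416564, plus strand: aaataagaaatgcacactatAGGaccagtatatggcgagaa
CAGG site in Ppp1r21 called in WT S, chr17:88545574-88545614, minus strand: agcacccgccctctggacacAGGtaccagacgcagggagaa
AAGG site called in WT S, chr3:120902238-120902278, plus strand: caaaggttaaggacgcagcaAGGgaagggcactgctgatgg
TAGG site called in KO S, chr17:39843384-39843424, plus strand: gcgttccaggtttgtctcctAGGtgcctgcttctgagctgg
AAGG site called in KO S, chr2:63637283-63637323, plus strand: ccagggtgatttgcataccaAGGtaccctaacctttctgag
CAGG site in Gm26511 called in WT L, chr9:21721970-21722010, plus strand: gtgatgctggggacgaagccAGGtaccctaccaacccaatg

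The 4 lists held 3044 sites in KO L, 3862 in WT L, 3370 in KO S and 7142 in WT S, with a median coverage at the called base of 11 passes or reads in KO L, 11 in WT L, 12 in KO S and 14 in WT S. They hold called bases only, so the number of AGG adenines that were sequenced and not called is unknown, and shares of each list are compared instead of site numbers. In each list a share of the calls lay in satellite contexts, that is, contexts sharing 3 or more 12-base words with the repeated sequence of the 8 windows of 100 kb that held 10 or more sites in a list. AGG sites were scarce there. Of the AGG sites 3 in KO L, 4 in WT L, 10 in KO S and 3 in WT S were in satellite contexts, which is 1.38%, 1.52%, 3.22% and 0.651%. The other called adenines stood at 13.5%, 11.4%, 12.3% and 9.44%, all above the upper bounds of the AGG intervals, which lay between 1.89% and 5.83%.

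AGG had a larger share of called adenines than of the other adenines in the same contexts in all 4 lists, more so in KO S than in the other 3. In KO L, 217 sites or 7.13% (6.24% to 8.10%) were AGG, and in WT L 264 sites or 6.84% (6.06% to 7.68%). In KO S 311 sites or 9.23% (8.27% to 10.3%) were AGG, and in WT S 461 sites or 6.45% (5.90% to 7.05%). With all sites KO S stands apart as the high list, since its interval does not overlap that of any other. Outside satellite contexts its share of 10.1% (9.03% to 11.2%) is still the highest, but the interval overlaps that of KO L (8.05%, 7.04% to 9.15%). The local background was taken from the adenines of the deposited contexts that lie on the called strand and were not the called base. There AGG made up 5.83% in KO L, 5.64% in WT L, 5.95% in KO S and 5.57% in WT S. The ratio of called to background was 1.22 in KO L, 1.21 in WT L, 1.55 in KO S and 1.16 in WT S, and without satellite contexts it was 1.36, 1.33, 1.67 and 1.25 in the same order. Among calls with coverage of 25 or more outside satellite contexts the ratio was 1.20 in KO L (7 AGG sites), 0.963 in WT L (5), 1.47 in KO S (17) and 0.867 in WT S (39). The exact intervals of these 4 shares, of which that of WT S was 3.51% to 6.65% at a background of 5.66%, all hold the background. With a modification score of 30 or more, satellite contexts included, the ratio was 0.898 in KO L, 0.981 in WT L, 1.03 in KO S and 0.862 in WT S.

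The base before the called adenine separated the members. GAGG stood highest above its background in every list, at 2.37% of called sites in KO L, 2.30% in WT L, 2.97% in KO S and 2.20% in WT S. These shares are 1.80, 1.86, 2.14 and 1.66 times the GAGG share of the background. CAGG was at 1.38, 1.25, 1.78 and 1.49 times its background, and at 1.39, 1.25, 1.81 and 1.502 times without satellite contexts. AAGG was at 0.767 times its background in KO L, 0.805 in WT L, 1.10 in KO S and 0.754 in WT S, so it was above it in KO S only. TAGG was close to its background in KO L and WT L (1.08 and 1.10), above it in KO S (1.23) and below it in WT S (0.694). Outside satellite contexts the TAGG ratios were 1.60, 1.503, 1.69 and 0.905. With all sites, the exact interval of the share lay above the background for GAGG in all 4 lists and for CAGG in KO L, KO S and WT S, below it for AAGG and TAGG in WT S, and held it in the remaining cases. Without satellite contexts the TAGG interval lay above the background in KO L (1.08% to 2.04%, background 0.941%), WT L (0.978% to 1.78%, background 0.888%) and KO S (1.28% to 2.24%, background 1.01%) and held it in WT S (0.624% to 1.08%, background 0.916%). The AAGG interval in WT S then held its background as well (1.07% to 1.65%, background 1.63%).

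**Figure D1:**
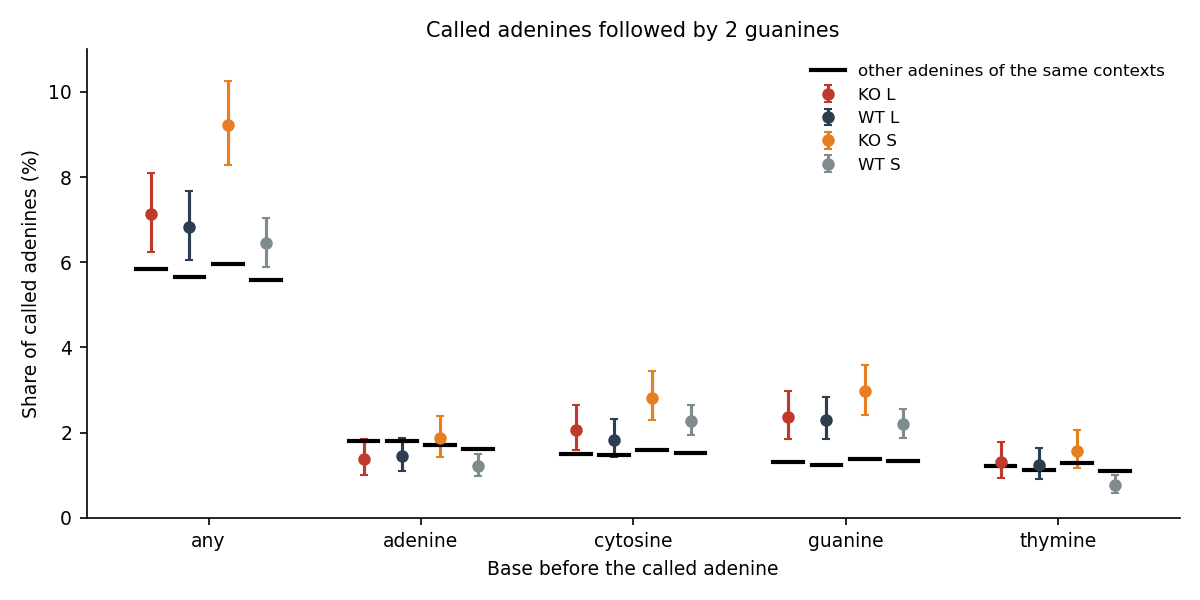
Share of called adenines (%, y axis) that are followed by 2 guanines, in all and by the base before the called adenine (x axis), for KO L, WT L, KO S and WT S. Points are shares with exact 95% intervals and black bars the local background; KO S (9.23%) is the highest list and the guanine group lies above its bar in every list.

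The base that follows the 2 guanines, which the rule did not use, was thymine far more often than in AGG elsewhere in the same contexts. This was noticed after the values were seen. Outside satellite contexts AGGT made up 41.6% of the called AGG sites in KO L (89 of 214, 34.9% to 48.5%) and 43.8% in WT L (114 of 260, 37.7% to 50.1%). It made up 58.1% in KO S (175 of 301, 52.3% to 63.8%) and 46.5% in WT S (213 of 458, 41.9% to 51.2%). Among the AGG adenines of these contexts that were not the called base, AGGT made up 19.9%, 19.8%, 18.2% and 19.1%, so the 4 lists share the pattern and KO S shows most of it. Over the 4 lists, 47.9% of called AGG sites were AGGT, against 19.2% of the other AGG adenines. AGGA went the other way, with 16.7% against 36.3%, and AGGC (17.2% against 21.3%) and AGGG (18.2% against 23.2%) were also lower. Some of the other AGG adenines have the called A as the base after their guanines. This raises their AGGA share somewhat and lowers the rest.

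Longer strings carried the pattern further. AGGTA was the most frequent of the 5-base strings, with 183 of the 1233 sites outside satellite contexts, or 14.8% against 4.84% of other AGG adenines. AGGTAC, the most frequent of the 6-base strings, was carried by 68 of these sites, or 5.52% against 0.727%, a ratio of 7.58. It was found at 7 called sites in KO L, 14 in WT L, 22 in KO S and 25 in WT S, above the local level in each list. In KO L AGGTCT was more frequent, with 13 sites (ratio 4.72 beside 3.56). Over the 4 lists AGGTCT had 64 sites (ratio 4.11) and AGGTCC had 57 (ratio 3.69). At 5 bases AGGTC had 149 sites (ratio 2.91), and as many as AGGTA in KO L (25) and KO S (53). The strings of 6 and 7 bases were picked by their frequency among the called sites, which favours high ratios. AGGTACC, the string of the Ppp1r21, Gm26511 and chromosome 2 contexts printed above, was carried by 26 sites, or 2.11% against 0.210%. Repeats of a longer core were few: the 3 most frequent strings from 4 bases before to 4 bases after the called adenine, actgAGGca, agagAGGcc and agccAGGta, each came from 7 distinct contexts.

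Other flanking bases differed by less. At the base before the called A, G was present in 32.8% of called AGG sites against 23.7% of other AGG adenines with 8 bases on each side, and A in 20.03% against 30.4%. A base further upstream A was again lower, at 22.3% against 33.7%. A was also lower at more distant positions, such as 7 bases upstream (23.6% against 32.2%) and 8 downstream (26.8% against 34.1%), though not 4 upstream (36.1% against 32.7%). At each offset the comparison set includes AGG adenines whose flanking base is the called A itself. That raises its share of A by an amount that was not worked out. At 6 bases downstream C was higher, at 31.6% against 19.7%. The median share of G and C among the other 37 bases of the context was 45.9% for AGG sites in each list and between 40.5% and 43.2% for the other called sites.

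**Figure D2:**
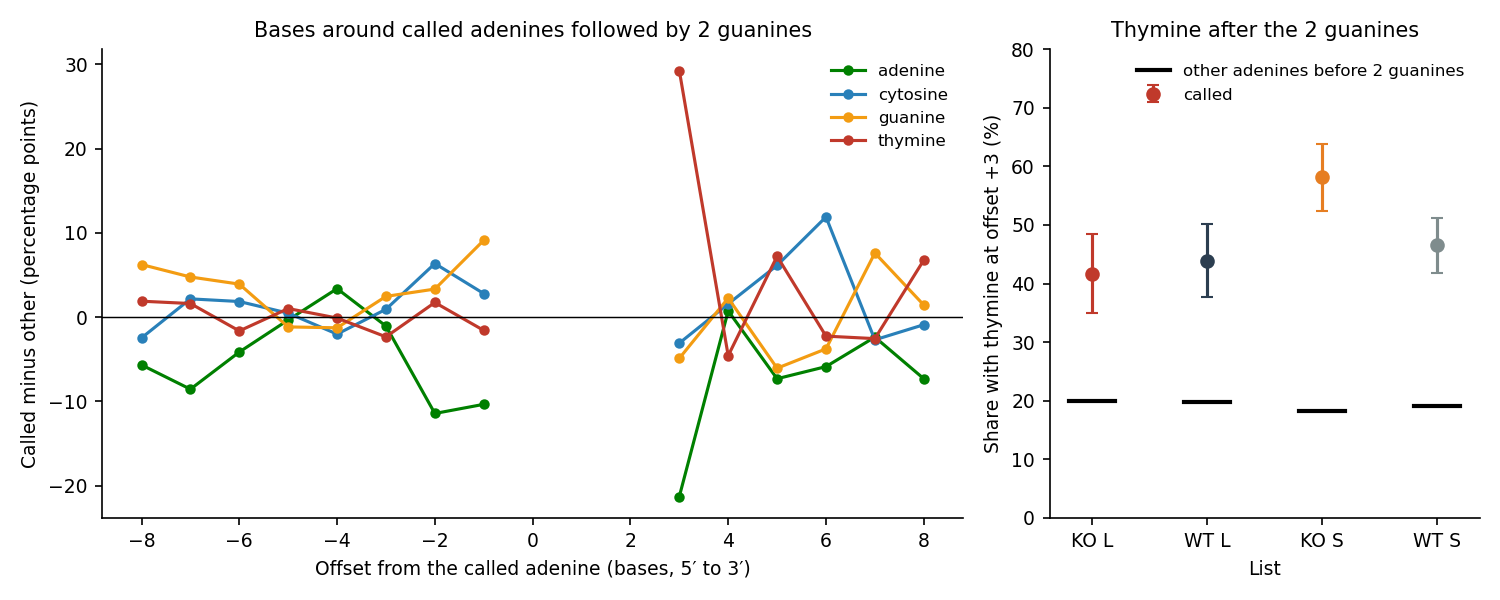
Left, the share of each base at 8 positions on either side (x axis, offset in bases) of called adenines followed by 2 guanines minus that around other such adenines of the same contexts (y axis, percentage points), 4 lists pooled outside satellite contexts; the largest departure is thymine at +3. Right, the share (%) with thymine at +3 for each list with exact 95% intervals, 58.1% in KO S being the highest, and the other adenines before 2 guanines as black bars.

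The knockout was compared with wild type within each DNA part. In L the AGG share in KO minus that in WT was 0.293 percentage points (−0.910 to 1.52), an interval that holds 0. In S the same difference was 2.77 points (1.67 to 3.93), higher in KO. Of 20 chromosomes (1 to 19 and X), the AGG share was higher in KO on 11 in L and on 16 in S. The AGGT share was higher in KO on 14 in L and on 16 in S, although over all L calls it differed by −0.028 points. With 1 list for each genotype and DNA part, the genotype and anything else that differs between 2 lists, such as the number of calls and their coverage, cannot be told apart.

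Over all calls, the difference in S lay mostly in AGGT. AGGT made up 2.92% of called sites in KO L and 2.95% in WT L, a difference of −0.028 points (−0.823 to 0.794). In S it made up 5.19% in KO and 2.98% in WT, a difference of 2.21 points (1.39 to 3.09). Over all calls KO S is the one list that departs, since the other 3 lie between 2.92% and 2.98%. This does not hold in every coverage class. At coverage 6 to 10 AGGT made up 3.49% in KO L, 3.18% in WT L, 5.38% in KO S and 4.40% in WT S. At 25 or more it made up 0.930%, 0.868%, 1.58% and 2.03%. The remaining AGG sites, AGGA, AGGC and AGGG together, made up 4.04% in KO S and 3.47% in WT S, a difference of 0.563 points (−0.198 to 1.39). As a share of AGG sites, AGGT was 56.3% in KO S and 46.2% in WT S (difference 10.1 points, 2.88 to 17.1), while in L it was 41.01% in KO and 43.2% in WT (difference −2.17 points, −10.9 to 6.68).

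By the base before, all 4 classes had a higher share in KO S than in WT S, with different certainty. TAGG made up 1.57% in KO S and 0.770% in WT S, a difference of 0.803 points (0.368 to 1.31). GAGG differed by 0.769 points (0.132 to 1.47) and AAGG by 0.651 (0.157 to 1.22). CAGG differed by 0.551 points, and its interval (−0.078 to 1.24) holds 0. With T after the guanines, CAGGT differed by 0.748 points (0.264 to 1.30), AAGGT by 0.746 (0.357 to 1.21), TAGGT by 0.414 (0.088 to 0.815) and GAGGT by 0.303 (−0.089 to 0.764). In L the intervals of the 4 classes all hold 0.

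Coverage moved with this difference. The WT S list has the higher coverage, and in each list, satellite contexts included, the AGG share was lowest among calls of coverage 25 or more. Outside satellite contexts the AGG share in KO S was 9.80% at coverage 6 to 10, 10.4% at 11 to 24 and 9.94% at 25 or more, and in WT S 8.46%, 6.65% and 4.91%. Among calls of coverage 11 to 24, AGGT made up 6.29% in KO S (89 of 1414) and 2.48% in WT S (90 of 3631), a difference of 3.82 points (2.54 to 5.28). At coverage 6 to 10 it made up 5.38% in KO S and 4.40% in WT S, a difference of 0.972 points whose interval (−0.438 to 2.48) holds 0. At coverage of 25 or more it made up 1.58% in KO S (8 of 505) and 2.03% in WT S (27 of 1331), a difference of −0.444 points (−1.64 to 1.19). In that class the difference lay in the other AGG sites: AGGA, AGGC and AGGG made up 3.56% in KO S (18 of 505) and 1.13% in WT S (15 of 1331), a difference of 2.44 points (0.951 to 4.49). The AGGT excess in KO S was thus seen most clearly in the middle class, and in the highest class the sign was opposite. It also turned among calls with an identification score of 20 or more, where AGGT made up 3.06% in KO S (15 of 490) and 3.63% in WT S (42 of 1157), a difference of −0.569 points (−2.29 to 1.57). For AGG as a whole the difference in S stayed positive in these subsets, at 1.99 points with coverage of 25 or more (0.052 to 4.42) and 0.533 points with the identification score limit (−2.23 to 3.69). With each list standardised to the coverage classes of all calls together, the AGG share was 9.21% in KO S and 6.74% in WT S. The part of coverage in the difference beyond these classes was not tested.

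**Figure D3:**
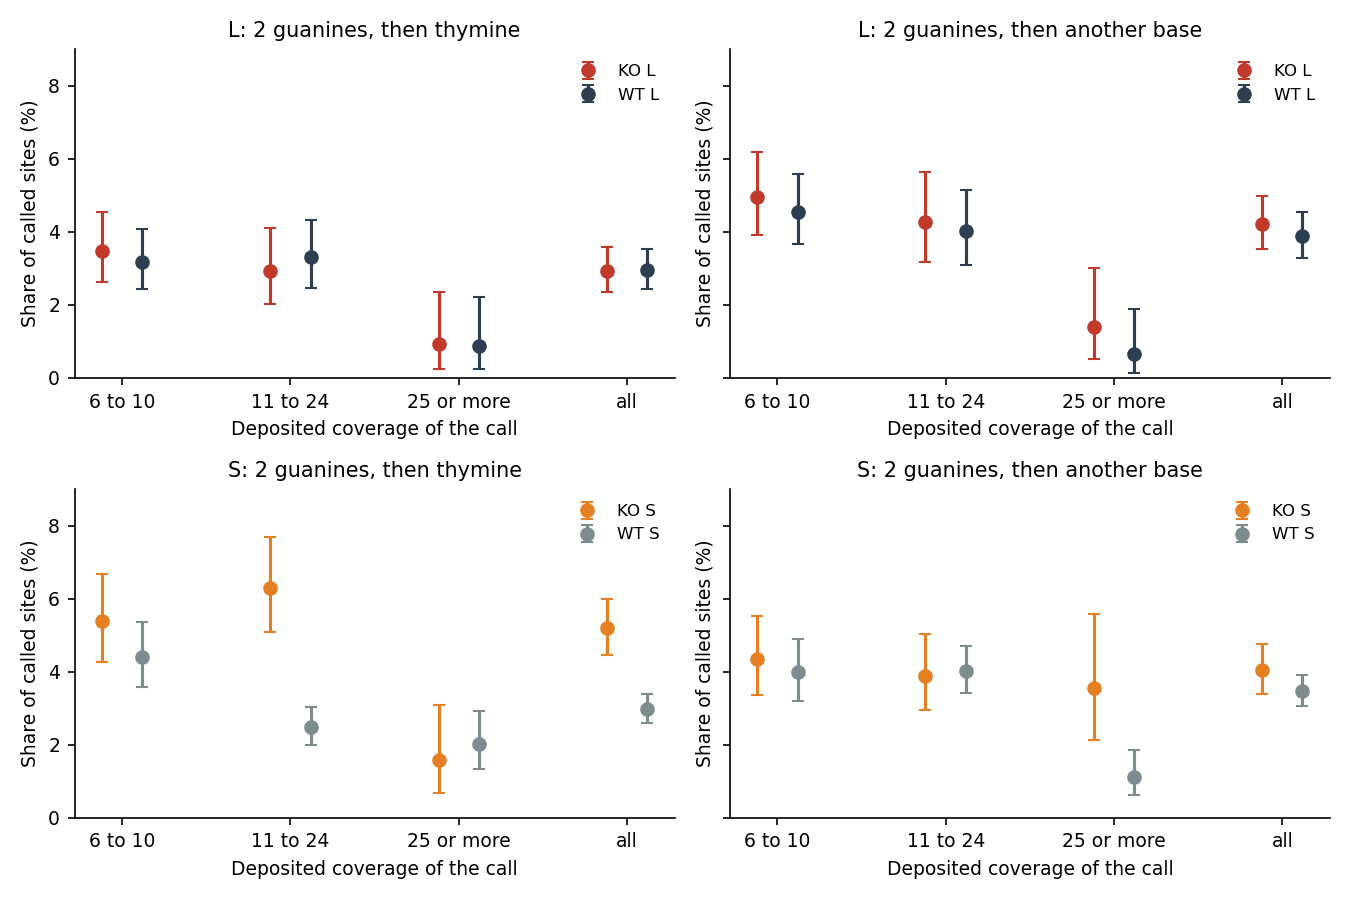
Share of called sites (%, y axis) that are adenines followed by 2 guanines and then thymine (left) or another base (right), by deposited coverage (x axis), in L (top) and S (bottom), KO left of WT with exact 95% intervals. In S at coverage 11 to 24 the thymine group stands at 6.29% in KO and 2.48% in WT, and the L panels overlap throughout.

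Sites followed by a single guanine were the nearest relatives. AGA, AGC and AGT together made up 18.4% of sites in KO S and 14.7% in WT S, a difference of 3.69 points (2.17 to 5.26), so a higher share in KO S was not limited to AGG. In L they made up 16.4% in KO and 14.4% in WT, a difference of 2.03 points (0.318 to 3.76). The interval of the AGG difference in L held 0. That contrast was not kept outside satellite contexts. The L difference of the single-guanine sites was there 1.24 points (−0.529 to 3.03), an interval that also holds 0. Their S difference there was 3.72 points (2.13 to 5.35). Among all single-guanine sites the share with T at base 24, the base that is T in AGGT, was 32.8% in both KO S and WT S. The difference was −0.030 points (−4.64 to 4.67). The difference between this and the 10.1 points of AGG was not itself tested. The pooled share joins members that differ. Outside satellite contexts it was 37.7% in KO S and 32.2% in WT S for AGA, 32.0% and 31.9% for AGC, and 28.9% and 36.7% for AGT. Contexts without a guanine also differed, in both directions, with ACA at 51.0% in KO S and 36.7% in WT S and ACC at 36.3% and 40.3%. A higher share in KO S was thus not limited to AGG. An excess of thymine at that base was not limited to AGG: outside satellite contexts AGA sites of KO S had it at 37.7% against 18.6% of other AGA adenines, a ratio of 2.03 beside 3.19 for AGG, and the ratio for ACA sites was 1.83 in KO L, 1.82 in WT L, 2.28 in KO S and 1.63 in WT S. Of the 16 pairs of bases that can follow a called adenine, AGG had the highest ratio in WT L, KO S and WT S, and in KO L it came after ACG, which had 7 sites.

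The kinetic values, also not used by the rule, were higher at AGG sites. The median IPD ratio of AGG sites was 3.08 in KO L, 3.20 in WT L, 3.04 in KO S and 3.08 in WT S, against 2.55, 2.52, 2.62 and 2.53 for the other called sites. A ratio of 4 or more was reached by 24.4% of AGG sites in KO L, 28.4% in WT L, 24.1% in KO S and 29.1% in WT S, against 12.4%, 13.4%, 15.2% and 14.9% of the others. In both measures AGG lay above the other sites in each list. AGG sites had lower coverage, with a median of 9 in KO L, 10 in WT L, 11 in KO S and 12 in WT S against 11, 11, 12 and 14, and the IPD ratio of calls falls as coverage rises. Within coverage 11 to 24 and outside satellite contexts the medians were 2.99 for AGG against 2.51 for other sites in KO L, 2.98 against 2.48 in WT L, 3.00 against 2.58 in KO S and 2.975 against 2.53 in WT S. Within that class the AGG intervals, with lowest bound 2.74, lie above those of the other sites, with highest bound 2.64. At coverage of 25 or more the intervals overlap in KO L (2.03 to 3.20 against 1.93 to 2.23) and KO S (2.10 to 2.87 against 1.95 to 2.15). They also overlap in WT S (2.01 to 2.65 against 2.01 to 2.10), and WT L has too few AGG sites for an interval.

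The modified fraction, the caller's estimate of the share of molecules with the modification, is given at coverage of 11 or more. Its median at AGG sites was 76.0% in KO L, 80.5% in WT L, 82.1% in KO S and 76.8% in WT S, against 60.0%, 64.1%, 69.1% and 67.1% at other sites. Outside satellite contexts the gap was smaller, with 80.85% in KO L, 80.9% in WT L, 83.35% in KO S and 77.5% in WT S at AGG sites, against 70.45%, 73.7%, 78.8% and 72.8%. The median modification score was 23 at AGG sites in each list, close to the lowest deposited value of 20. An identification score of 20 or more was reached by 13.4% of AGG sites in KO L, 12.9% in WT L, 13.5% in KO S and 20.2% in WT S, against 13.2%, 11.9%, 14.5% and 16.2% of all sites in those lists. AGG was thus near the level of all sites in 3 lists and above it in WT S. CAGG was the class with the highest share in each list, at 22.2%, 23.9%, 16.8% and 27.2%.

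**Figure D4:**
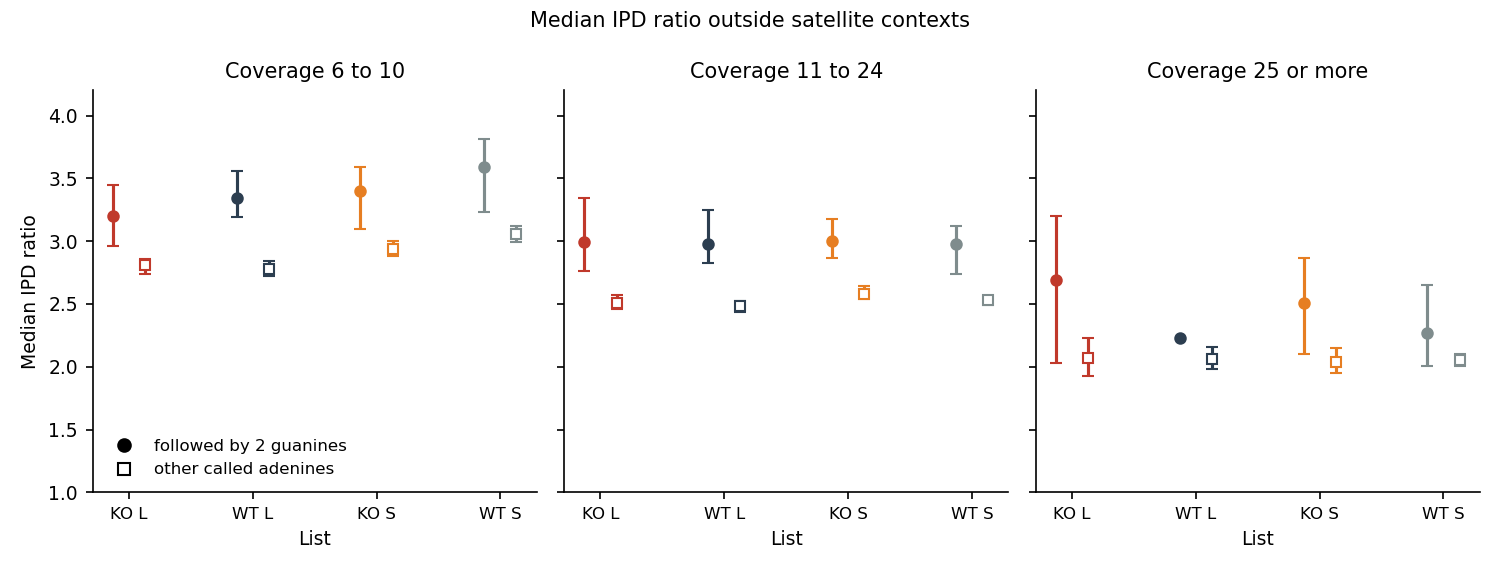
Median IPD ratio (y axis) of called adenines followed by 2 guanines (filled circles) and of other called adenines (open squares) by list (x axis) in 3 coverage classes, outside satellite contexts, with 95% order-statistic intervals; the WT L circle at coverage of 25 or more rests on 5 sites and has none. Medians fall with coverage in both groups, and at coverage 11 to 24 the circles lie at about 3 and the squares between 2.48 and 2.58.

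AGG sites were almost never called at the same base in another list. The 1253 calls fell on 1249 bases, of which 1247 were called in 1 list. Of the AGG sites of KO L, 1 of 217 (0.461%) was also called in WT L, against 4.63% of all KO L sites, and 1 of 311 (0.322%) in KO S was also called in WT S, against 4.78% of all sites. Between the DNA parts, 1 of 217 AGG sites of KO L recurred in KO S, against 3.94% of all sites, and 1 of 264 of WT L (0.379%) recurred in WT S, against 4.40% of all sites. Each of these is the same base, the A of the chromosome 2 GAGG context printed first, in a site-dense window. It had coverage of 253 in KO L, 247 in WT L, 127 in KO S and 183 in WT S, with IPD ratios of 3.15, 3.09, 3.18 and 2.58. Its modified fraction was 48.3% in KO L and 43.6% in WT L, and 52.7% in KO S and 34.3% in WT S, and its identification score of 129 in KO L was the highest of any AGG site. The second shared base, the TAGG context on chromosome 14, had weaker kinetics, with an IPD ratio of 1.53 and a modified fraction of 17.3% in KO S, and 1.81 and 25.6% in WT L.

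Outside satellite contexts no AGG base was shared by any of the 4 pairs of lists compared. For the 301 AGG sites of KO S that allows a shared share of up to 1.22%. Sites of all kinds were also rarely shared there, with 3 bases in both KO L and WT L, 0 in both KO S and WT S, 0 in both KO L and KO S, and 1 in both WT L and WT S. Low recurrence outside satellites was thus common to all called sites, and the lower overall recurrence of AGG stood beside its smaller satellite share. The lists do not show which bases were covered and not called, so recurrence sets no level for how often a base is modified.

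The spacing of AGG sites was taken from windows of 100 kb and from their neighbours. Of the windows with an AGG site, 1116 held 1 AGG base, 56 held 2, 5 held 3 and 1 held 6. No such count was made for the other called sites, so these numbers do not set AGG apart. Another called base lay within 20 bases of 5.07% of AGG sites in KO L, 2.65% in WT L, 5.79% in KO S and 5.86% in WT S, against 11.6%, 11.3%, 10.3% and 14.6% of the other sites. The plus strand carried 53.0% of AGG sites in KO L (115 of 217) and 54.5% in WT L (144 of 264). In KO S it carried 45.3% (141 of 311) and in WT S 54.9% (253 of 461). The other sites stood at 49.1%, 49.3%, 48.3% and 48.0%. In WT S alone the AGG interval (50.2% to 59.5%) lay above the other sites, and elsewhere it held their share. A CpG was present in the contexts of 29.03% to 31.9% of AGG sites across the lists and 29.04% to 33.6% of the others.

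In the RefSeq gene table of GRCm38.p6, which has the chromosome coordinates of mm10, 51.6% of AGG sites in KO L, 58.3% in WT L, 48.9% in KO S and 51.8% in WT S lay between the start and end of a gene. The other called sites stood at 44.3%, 47.1%, 45.05% and 48.0%. Outside satellite contexts the AGG shares were 52.3%, 58.8%, 50.5% and 52.2% and those of other sites 50.2%, 52.2%, 50.4% and 52.3%, so WT L alone kept an AGG interval (52.6% to 64.9%) just above the other sites. Exons and introns were not told apart. Promoter windows, from 250 bases before to 50 after a gene start, held 3 AGG sites, in Gm40124 in KO L, Draxin in WT L and Ndel1 in WT S. That is 0.461%, 0.379%, 0% and 0.217% of AGG sites in KO L, WT L, KO S and WT S, near the 0.493%, 0.233%, 0.326% and 0.308% of all sites.

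No gene held more than 3 AGG bases. A single AGG base was found in each of 624 genes, 2 bases in 39 genes and 3 in 1 gene, and no such count was made for other called sites. The gene with 3 was Hivep3, a large zinc finger transcription factor gene on chromosome 4. It held a TAGGT site at 119817313 (coverage 6, IPD ratio 3.15) and a CAGGC site at 120038475 (coverage 6, IPD ratio 2.06) in KO L. In WT S it held a TAGGT site at 120000239 (coverage 30, IPD ratio 2.94, modified fraction 69.6%).

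Of the genes with 2 AGG bases, some are described here by their values. Crebbp, which encodes a histone acetyltransferase, had a GAGGC site in WT L with an IPD ratio of 5.76 at coverage 8 and a GAGGG site in WT S with 3.41 at coverage 12. Rptor, a subunit of the mTORC1 kinase complex, had an IPD ratio of 4.13 at coverage 8 in WT L and of 7.11 at coverage 7 in WT S. Iqsec3, an exchange factor for Arf GTPases, had 2 GAGG sites in the KO lists, with an IPD ratio of 9.53 at coverage 20 in KO S and 2.48 at coverage 8 in KO L. Each of these rests on coverage of 20 or less. The glutamate receptor gene Gria1, the E3 ubiquitin ligase gene Ubr4, the cation channel gene Trpm3 and the Slit receptor gene Robo2 each had 2 sites, all of them AGGT. Arfip1, Gm13599, Tex2, Erc1, Slc39a11, Agap1, Camta1, Csmd1 and the antigen receptor loci Tcra and Igh also had 2 each. Several of these genes are long (Csmd1 spans 1642848 bases), and length was not adjusted for.

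Genes chosen for ES cells and for the antibody's target held few called sites of any kind, so that their AGG counts carry little information. With 5 kb added on each side, 26 pluripotency genes held 0 AGG sites among 8 called sites over the 4 lists, and 31 lineage regulators 0 among 11. The 24 genes of DNA and adenine methylation held 1 among 12, in Tet1, which encodes a 5-methylcytosine dioxygenase, a CAGGT site in WT S with an IPD ratio of 3.99 at coverage 6. The 18 genes of the DNA damage response held 1 among 15, in Rad50, a subunit of the MRN complex that binds DNA breaks, a TAGGT site in WT L with an IPD ratio of 2.81 at coverage 12. The 24 imprinted genes held 1 among 12, in Phlda2, a maternally expressed growth regulator, a GAGGT site in WT S with an IPD ratio of 5.24 at coverage 17. None of these 3 bases was called in a KO list, and at this depth a base that was not called cannot be taken as unmodified.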

How the data were processed

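The members, the gene lists and the alternatives were chosen with earlier results of these data known, and the AGGT split was made after values were seen. The authors deposited 4 lists of called adenines against mm10, per the submitters' processing notes, and the labels name the same list for replicate 1 and replicate 2 of a group. The caller, aligner, versions and filters, not given in the sources used here, remain unknown. Per the file headers and attributes, each line holds a deposited score (lowest value 20, scale not stated), the coverage as a signal without normalization, the IPD ratio as a linear ratio, an identification score, and the modified fraction at coverage of 11 or more. The lowest coverage was 6 and the highest 10725. The values were used as deposited, without a filter.

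Shares have exact Clopper-Pearson intervals, differences Newcombe intervals and medians order-statistic intervals, all at 95%, covering counting error only. Lists were compared within a DNA part, and no p-value was computed. Background adenines came from the same contexts and strand, the called base left out. Adenines just before the called base, which cannot be AGG, were kept. Satellite words were derived from the contexts themselves. Of 51 contexts wholly inside RefSeq promoter windows of GRCm38.p6, 51 equalled that sequence in all 41 bases. Genes came from the RefSeq table (49943 genes), and 24 of 25 imprinted genes matched. Named genes were the 20 with the most distinct AGG bases, ties broken by number of lists, density and symbol, then list members with a site. Some genes that the rule took are left out. Single sites were those with the highest identification score by class or the highest score by list, and bases called in 3 or more lists; the chromosome 14 site and the AGGTACC contexts were added after values were seen. Shares and intervals were tested on simulated data. Python 3.11.15, pandas 2.3.3, numpy 2.4.6, scipy 1.17.1 and matplotlib 3.10.9 were used. Alternatives were coverage and score limits, removal of satellite contexts or site-dense windows, 1 site per cluster, each context once, and 5 kb added to genes. Shares were also standardised to one distribution of the 3 coverage classes. The background was also taken from both strands, or with each adenine once and called ones left out.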

Additional observations from a re-analysis of the deposited data

Results flagged for a closer look

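The KO minus WT difference had opposite signs in the L and S lists for 5 measures of AGG sites. None of these differences between L and S was tested, and each group is 1 list. For the share of AGGT among called sites it was −0.028 percentage points in L and 2.21 in S. For AAGG it was −0.070 points in L and 0.651 in S. For GAGGT it was −0.211 points in L and 0.303 in S, and for TAGGT −0.258 in L and 0.414 in S. For the share of AGGT among AGG sites it was −2.17 points in L and 10.1 in S. In L the intervals of these differences all hold 0, so the sign there is not established by the counts.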

How the results depend on the processing

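No paired analysis was possible because each deposited list holds both replicates of its group, and for the same reason no replicate could be left out. The single coverage classes and every AGGT alternative were chosen after seeing the data. Of 36 alternatives to the 4 AGG shares 24 stayed within the counting interval. With coverage of 11 or more the share was 5.86% in KO L, 5.98% in WT L and 5.60% in WT S, and with 25 or more 2.33%, 1.52%, 5.15% and 3.16% in KO L, WT L, KO S and WT S. With a score of 30 or more it was 5.48% in KO L, 6.19% in KO S and 4.88% in WT S. In WT S it was 8.04% with an identification score of 20 or more and 7.38% with 1 site per cluster. The ratio to background was 1.04 in KO L, 1.07 in WT L and 1.01 in WT S at coverage of 11 or more, 0.403, 0.266, 0.851 and 0.562 in KO L, WT L, KO S and WT S at 25 or more with satellite contexts included (1.20, 0.963, 1.47 and 0.867 without them), and 0.898, 0.981, 1.03 and 0.862 at a score of 30 or more. It was 1.28 in KO S and 1.39 in WT S with the identification score limit, and 1.28 in WT S with 1 site per cluster. The KO minus WT difference in AGG share in S was 1.31 points at a score of 30 or more and 0.533 with the identification score limit. Its interval lay above 0 in 6 of 8 settings, and that of AGGT in S in 5 of 8. These settings are overlapping subsets of the same sites and do not include coverage 6 to 10 or 11 to 24 alone. At coverage 6 to 10 alone the AGG difference in S was 1.32 (−0.561 to 3.29). The AGGT difference in S was −0.444 at coverage of 25 or more and −0.569 with the identification score limit, both opposite in sign. It was 1.26 at a score of 30 or more, 0.972 at coverage 6 to 10 alone and 3.82 at 11 to 24 alone. AGGT in L was −1.11 points at a score of 30 or more. AAGG in S changed sign, to −0.173 at a score of 30 or more and −0.190 with the identification score limit, and CAGG was −0.538 in S with that limit and −1.17 in L at a score of 30 or more. At coverage of 25 or more the L difference was 0.962 points for GAGG and −0.651 for TAGG. With 5 kb added, 62.7% of AGG sites in KO L, 66.7% in WT L, 60.8% in KO S and 61.6% in WT S lay in genes, against 54.7%, 56.4%, 55.1% and 57.6% of other sites, and without satellite contexts 63.6%, 67.3%, 62.8% and 62.0% against 61.4%, 62.2%, 61.2% and 62.2%. Of 144 alternatives to the class shares 110 stayed within the interval, as did 50 of 84 alternatives to the medians. The cause of these changes was not tested. Depth limits the classes: at coverage of 25 or more KO S holds 8 AGGT sites.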
